A study of Homo sapiens with 9 samples.

Results

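The angiopoietins and angiopoietin-like proteins are secreted glycoproteins, most of which share a coiled-coil region and a fibrinogen-like domain. Transcript levels of 4 of these genes, ANGPTL7, ANGPTL4, ANGPT1 and ANGPT2, were followed in A375P cells, an established human melanoma line with mutant BRAF, after inhibition of the kinase cascade that ends in ERK. The genes were chosen by family name together with the measured 24 h level of ANGPTL7, which was high with both inhibitors, and 7 gene symbols were listed: ANGPTL1, ANGPTL2, ANGPTL4, ANGPTL6, ANGPTL7, ANGPT1 and ANGPT2. The 4 genes had at least 1 row of their own on the array, of 17047 genes that had one, and where a gene had several rows the brightest on average was taken. ANGPTL6 shared both of its 2 rows with another gene symbol and has no value of its own, and ANGPTL1 and ANGPTL2 are not analysed here.

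The cells had received 1 µM PD184352, an inhibitor of the MEK kinases, 0.4 µM PLX4720, a RAF kinase inhibitor, or the solvent DMSO, for 2, 6 or 24 h. All were the same line, grown in medium with serum, and the doses of the 2 compounds differed. There was 1 deposited sample for each treatment at each time, 9 in all, although the series design speaks of triplicates, and the sources used here do not state whether a sample is 1 array or a mean. No group therefore has a spread of its own. Values are intensities on a linear scale, with medians of 98.96 to 102.4 per sample, and no call of detection above background came with them. Of 10 melanocyte markers, 7 passed the filter on dim genes and 5 of the 7 were called higher with both inhibitors at 24 h. Of 14 tested markers of endothelial, pericyte, smooth muscle and fibroblast cells, 0 were called at 24 h, when 31.6% of all genes were called and 12.5% were called higher. The endothelial marker KDR was called lower at 6 h (-0.52 on the log2 scale, limma adjusted p = 0.0144). The lists held 10 endothelial, 6 pericyte and smooth muscle and 5 fibroblast markers. PECAM1, TEK and EMCN (endothelial), RGS5 (pericyte) and DCN (fibroblast) lay below the filter, and ACTA2 and PDGFRA are not analysed here. These counts concern change with inhibitor, not whether a marker was expressed.

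ANGPT1 and ANGPT2 are ligands of the endothelial receptor tyrosine kinase TIE2, the product of TEK: ANGPT1 activates it, and ANGPT2 can oppose ANGPT1 in a context-dependent way. The angiopoietin-like proteins do not bind TIE2. ANGPTL4 inhibits lipoprotein lipase and is induced by fasting, hypoxia and glucocorticoids. ANGPTL7 is best known from the eye, where the trabecular meshwork secretes it and glucocorticoids raise its transcript. In melanoma, angiopoietins are usually discussed as signals from tumour cells to vessels, which a culture of 1 cell line does not contain.

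The promoters of ANGPTL7, whose level differed most between inhibited and DMSO cells at 24 h, and of ANGPTL4, whose level did not move detectably, are shown for comparison. Each runs from 250 bases before to 50 bases after the RefSeq start of transcription on assembly GRCh38.p14, 5′ to 3′ on the gene's strand, and capitals mark matches to the motifs searched.
ANGPTL7, chr1:11189105-11189404, + strand: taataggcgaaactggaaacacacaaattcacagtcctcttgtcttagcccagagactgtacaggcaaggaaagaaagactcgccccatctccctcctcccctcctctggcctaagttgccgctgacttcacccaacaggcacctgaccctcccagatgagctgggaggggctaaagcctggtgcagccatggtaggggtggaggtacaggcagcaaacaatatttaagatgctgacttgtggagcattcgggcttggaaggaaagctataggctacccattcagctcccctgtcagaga
ANGPTL4, chr19:8363905-8364204, + strand: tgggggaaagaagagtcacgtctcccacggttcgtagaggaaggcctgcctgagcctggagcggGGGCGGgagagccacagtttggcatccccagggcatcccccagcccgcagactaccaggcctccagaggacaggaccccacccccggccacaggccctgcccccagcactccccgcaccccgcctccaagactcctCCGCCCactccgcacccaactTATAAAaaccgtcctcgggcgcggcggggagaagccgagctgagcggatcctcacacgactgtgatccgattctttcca

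A set of 9 motifs was searched on both strands. They were TGANTCA for AP-1, TGACGTCA for the cAMP response element, GTAAACA for forkhead factors, CACGTG for the canonical E-box, CATGTG for the E-box variant, CCGGAA for ETS factors, ACGTGC for the hypoxia response, TATAAA for the TATA box and GGGCGG for the GC box. The hypoxia motif ACGTGC can overlap the canonical E-box. The ANGPTL7 window held none of the 9 motifs, so it is printed wholly in lower case. The ANGPTL4 window held TATAAA once, starting at position -29 from the start site, and GGGCGG at 2 places, the first at -186. Of all 35116 promoter windows of this length, 11.5% held TATAAA and 45% held GGGCGG. The shares were 7.71% for TGANTCA, 1.85% for TGACGTCA, 3.42% for GTAAACA, 7.26% for CACGTG, 11.1% for CATGTG, 17.2% for CCGGAA and 6.89% for ACGTGC. Each motif was thus absent from most windows, and the share of windows that held none of the 9 was not counted. The absence of a match says only that these letters are not in this window. The GC content was 53.3% for ANGPTL7 and 66.3% for ANGPTL4.

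At 24 h, ANGPTL7 had an intensity of 1429 with PD184352 and 1044 with PLX4720, against 65.2 with DMSO. At 6 h it stood at 71.3 with PD184352 and 63.7 with PLX4720, against 56.9 with DMSO, and at 2 h at 65.5 and 55.8, against 55.9. The 24 h inhibitor samples thus stood apart from the other 7, which lay between 55.8 and 71.3. The difference from DMSO at 24 h was 21.6-fold for PD184352 and 15.8-fold for PLX4720, each on the log2(intensity + 1) scale used throughout, and the mean of both was 4.21 on the log2 scale, or 18.5-fold. This was the highest of the 12785 genes tested, in which the middle 95% lay between -1.04 and 0.73. The gene was chosen for this value, so its differences are given without a test.

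The earlier samples carried little of this difference. The mean of both inhibitors minus DMSO was 0.24 (log2) for ANGPTL7 at 6 h, where 13.9% of genes had a larger absolute change, and 0.11 at 2 h, where 35.4% did. At 2 h PD184352 differed from DMSO by 0.22 and PLX4720 by -0.0048, so the compounds did not share a direction then. In DMSO cells the level at 24 h was 1.16-fold that at 2 h. Between 6 h and 24 h no sample was taken, and the time at which the level began to climb is not resolved.

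**Figure D1:**
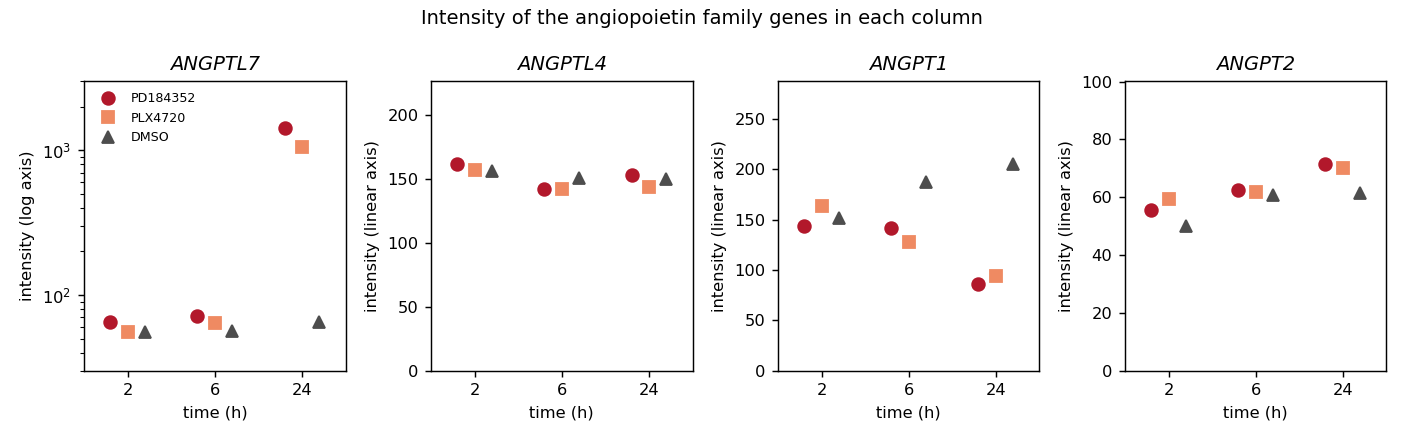
Intensity of ANGPTL7 (log axis), ANGPTL4, ANGPT1 and ANGPT2 (linear axes from 0) against time in hours, with 1 point for each sample: circles PD184352, squares PLX4720, triangles DMSO. ANGPTL7 reached 1429 and 1044 in the 24 h inhibitor samples and lay between 55.8 and 71.3 in the other 7. ANGPT1 was at 86.2 and 94.5 with inhibitor at 24 h, against 205.6 with DMSO.

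ANGPT1, the TIE2 agonist, moved the other way. At 24 h it had 86.2 with PD184352 and 94.5 with PLX4720, against 205.6 with DMSO. At 6 h it had 141.5 with PD184352 and 128.2 with PLX4720, against 187.5 with DMSO. At 2 h it had 144.0 and 163.5, against 152.2. Both inhibitor samples were below DMSO at 24 h and at 6 h, while at 2 h they lay on either side of it.

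ANGPT1 fell by 1.18 on the log2 scale at 24 h, to 0.44 of the DMSO level (SE 0.11, 95% interval -1.42 to -0.94, limma adjusted p = 3.1e-05). At 6 h it fell by 0.47 (SE 0.11, limma adjusted p = 0.0458), a call close to the threshold: the adjusted p was 0.222 without the PLX4720 6 h sample, 0.0842 without the PD184352 6 h sample, 0.0594 without either 2 h inhibitor sample, 0.103 when dim genes were kept in the fit, 0.0779 after quantile normalization and 0.0872 with the mean of the 3 DMSO samples as control. At 2 h the change was 0.01 (SE 0.11, limma adjusted p = 0.985). Of the 2 family genes tested, ANGPT1 and ANGPTL4, none was called at 2 h (0 of 2), 1 at 6 h and 1 at 24 h. Among all 12785 genes the shares called were 0.086% at 2 h, 3.29% at 6 h (2.74% lower) and 31.6% at 24 h (19.2% lower). ANGPT1 was also past 2-fold at 24 h with each compound alone, as were 4.52% of genes with PD184352 and 3.44% with PLX4720. These tests set the difference from DMSO against how far the 2 compounds differ from each other, not against how far cultures do.

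The change of ANGPT1 differed between the times by limma's F-test (adjusted p = 0.00194), as did that of 14.9% of all genes. The 24 h change minus the 2 h change was -1.19 (log2). Both arms contributed to it. The 24 h level was 0.60 of the 2 h level with PD184352 and 0.58 with PLX4720, against 1.35-fold the 2 h level with DMSO. With the mean of all 3 DMSO samples as the control, the 24 h change was -0.99. Fewer transcripts per cell and fewer cells that express the gene cannot be told apart in such bulk samples.

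ANGPTL4, the lipoprotein lipase inhibitor, stayed within a narrow range. It had 152.5 with PD184352 and 143.2 with PLX4720 at 24 h, against 149.7 with DMSO. At 6 h it had 142.1 and 141.8, against 150.4, and at 2 h 161.6 and 156.6, against 156.0. All 9 values lay between 141.8 and 161.6, and inhibitor and DMSO samples overlapped at 24 h. The change was -0.02 at 24 h (SE 0.09, 95% interval -0.21 to 0.17, limma adjusted p = 0.916), -0.08 at 6 h (limma adjusted p = 0.737) and 0.03 at 2 h (limma adjusted p = 0.961). No change was detected in the row of ANGPTL4. The interval at 24 h bounds the change of this row to at most 0.21 on the log2 scale in either direction under this spread. Without a call of detection, whether the row was above background is not known, so the bound may not hold for the transcript.

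ANGPT2, the context-dependent TIE2 ligand, was dim. It had 71.6 with PD184352 and 70.1 with PLX4720 at 24 h, against 61.6 with DMSO. At 6 h it had 62.5 and 61.9, against 60.9, and at 2 h 55.6 and 59.4, against 50.02. Each inhibitor sample was above the DMSO sample of its time, by at most 1.18-fold. The mean log2 value of ANGPT2, 5.96, lay under the filter at 6.21, so it was tested only in the fit with no filter, where the change at 24 h was 0.20 (SE 0.08, limma adjusted p = 0.143) and 22.1% of 17047 genes were called. In that fit it was 0.03 at 6 h (limma adjusted p = 0.930), with 1.48% of genes called, and 0.20 at 2 h (limma adjusted p = 0.727), with 0.00587% called. Its second row, transcript cluster 3122489, had 45.2 with both inhibitors, against 48.5 with DMSO at 24 h, and so pointed the other way.

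**Figure D2:**
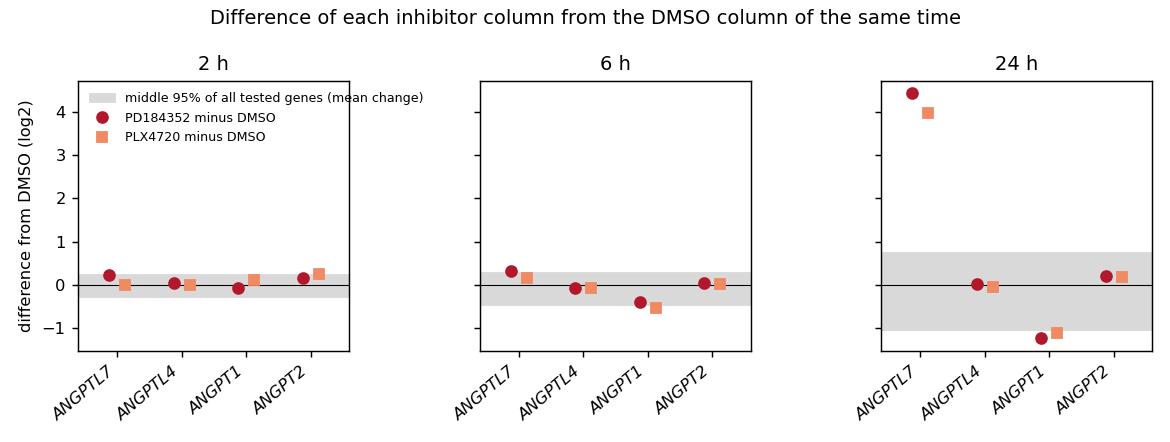
Difference of each inhibitor sample from the DMSO sample of the same time (log2) for the 4 genes at 2, 6 and 24 h. The grey band holds the middle 95% of the mean change of both inhibitors over all tested genes. At 24 h ANGPTL7 lies far above the band, at 4.43 for PD184352 and 3.98 for PLX4720, and ANGPT1 just below it, at -1.24 and -1.11.

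PD184352 and PLX4720, at their different doses, were compared within the 6 inhibitor samples with time as a block. ANGPTL7 was higher with PD184352 at 3 of 3 times, by 0.23 (log2) at 2 h, 0.16 at 6 h and 0.45 at 24 h. These differences are a description with no test, since the gene was chosen for its 24 h values and passed the filter on dim genes only through those 2 samples. PD184352 minus PLX4720 was -0.06 for ANGPT1 (95% interval -0.22 to 0.11, limma adjusted p = 1.00) and 0.05 for ANGPTL4 (95% interval -0.09 to 0.18, limma adjusted p = 1.00). For ANGPT2, from the fit with no filter, it was -0.02 (95% interval -0.16 to 0.13). No gene of 12785 (0%) was called different between the compounds by limma, with a smallest adjusted p of 0.194 and 556 genes at an unadjusted p below 0.05. In this 1 pair of compounds no difference was shown for ANGPT1, ANGPTL4 or ANGPT2, and their intervals hold differences of at most 0.22 in size.

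The 5 genes whose 9 log2 values correlated best with those of ANGPTL7, among 1048 genes that spanned at least 2-fold, were LRRC15, MATN2, CLIP3, FLRT1 and NREP (Pearson's r of 0.997 to 0.994). LRRC15, a leucine-rich repeat membrane protein, had 706.7 and 527.3 with PD184352 and PLX4720 at 24 h, against 149.0 with DMSO. FLRT1, a leucine-rich repeat adhesion protein, had 508.1 and 391.2, against 130.2, and MATN2, the matrix protein matrilin 2, had 240.9 and 196.1, against 73.97. CLIP3, a microtubule-associated protein, had 576.4 and 558.4, against 314.9, and NREP had 263.6 and 232.6, against 131.1. All 5 were high in the same 2 samples as ANGPTL7, with mean differences of 0.85 to 2.03 (log2), all smaller than the 4.21 of ANGPTL7. With 2 samples that stand apart, such correlations mostly record which samples those are: 267 of the 1048 genes had an r above 0.9.

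For ANGPT1 the 5 closest genes were NUDCD1, CARHSP1, FLRT2, NOC3L and UTP11 (r of 0.990 to 0.983). CARHSP1, an RNA-binding protein, had 849.7 and 956.5 with PD184352 and PLX4720 at 24 h, against 1893 with DMSO. FLRT2, a relative of FLRT1, had 41.6 and 46.1, against 129.4. NOC3L and UTP11, which act in ribosome biogenesis, stood at 0.50 and 0.51 of the DMSO level at 24 h, beside 0.44 for ANGPT1. For each of the 5 the DMSO level was higher at 24 h than at 2 h, as it was for ANGPT1, and 196 of the 1048 genes had an r above 0.9. All samples share a cell line and each inhibitor pair shares its DMSO sample, so these values describe likeness only.

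**Figure D3:**
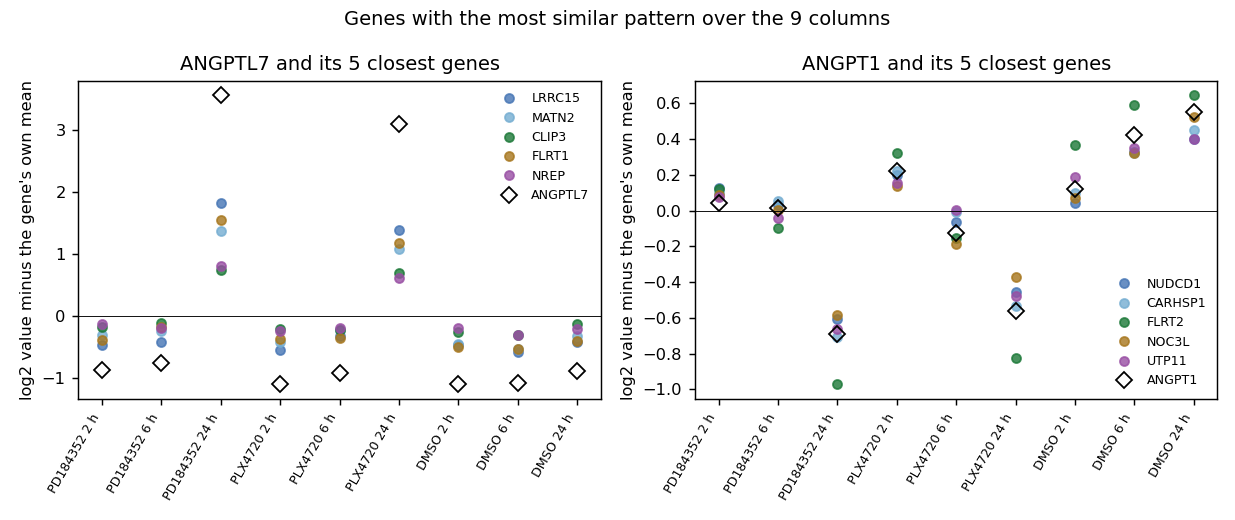
Log2 values minus each gene's own mean over the 9 samples, for ANGPTL7 (left) and ANGPT1 (right) as open diamonds and for the 5 genes most correlated with each as filled points. In the left panel all 6 genes are high in both 24 h inhibitor samples, and ANGPTL7 spans the widest range. In the right panel all 6 are lowest in those samples and highest with DMSO at 24 h.

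Some angiopoietin-like genes lie inside other genes. By the RefSeq gene table of GRCh38.p14, ANGPTL7 lies within MTOR, which encodes the growth-regulating kinase mTOR, on the opposite strand. MTOR had 1068 with PD184352 and 1030 with PLX4720 at 24 h, against 773.7 with DMSO. It rose by 0.44 on the log2 scale (SE 0.10, limma adjusted p = 0.00931), against 4.21 for ANGPTL7. At 2 h MTOR had 624.3 and 729.6, against 792.0, a difference of -0.23 that did not pass (limma adjusted p = 0.674). Host and inner gene were thus both higher at 24 h by very different sizes, and whether signal of one reaches the row of the other was not tested.

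MCPH1, which holds ANGPT2, is not analysed here. The other hosts measured hold genes without a row of their own. RALGPS2, a Ral exchange factor gene that holds ANGPTL1, rose by 0.81 (log2) at 24 h (SE 0.11, limma adjusted p = 0.000345) and by 0.53 at 6 h (limma adjusted p = 0.0299). RALGPS1, which holds ANGPTL2, lay below the filter, with 67.4 and 70.7 at 24 h, against 65.0 with DMSO. DOCK6, which holds ANGPTL8, had 230.8 and 232.7, against 204.1, and did not pass (limma adjusted p = 0.162). These values are those of the hosts and say nothing of the genes inside them.

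**Figure D4:**
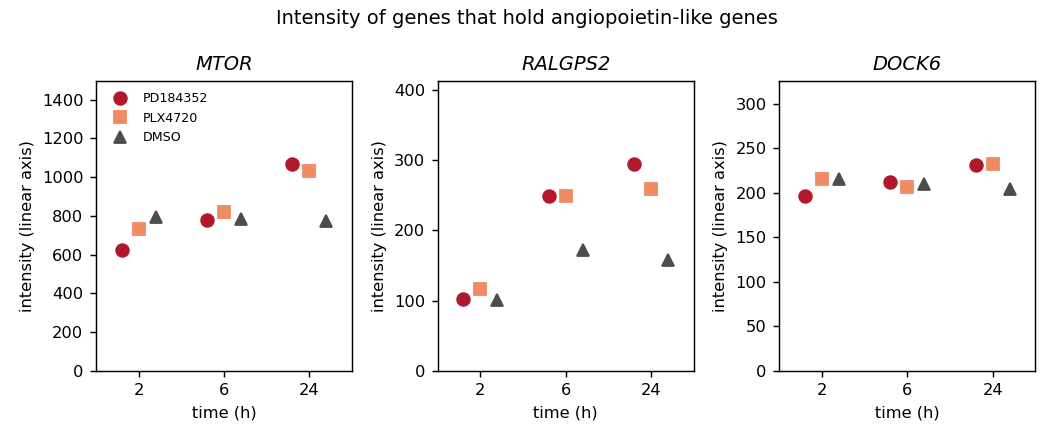
Intensity (linear axes from 0) of MTOR, RALGPS2 and DOCK6 against time in hours, with 1 point for each sample, symbols as for the family genes. MTOR reached 1068 and 1030 with inhibitor at 24 h, against 773.7 with DMSO, and RALGPS2 294.8 and 258.7, against 157.3.

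Among further family genes, ANGPT4, another TIE2 ligand, was tested. It had 95.5 and 89.4 with PD184352 and PLX4720 at 24 h, against 97.6 with DMSO, and its change of -0.08 did not pass (SE 0.10, limma adjusted p = 0.643). ANGPTL5 lay far below the filter, with intensities of 7.94 to 9.63, and ANGPTL8 is not analysed here.

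Of 11 listed receptor genes 8 were tested, and at 24 h 1 was called lower and 0 higher, with a median change of -0.11, beside -0.0094 over all genes. Over all genes 12.5% were called higher and 19.2% lower, so 1 of 8 is near the background. TEK, PTPRB, which encodes the phosphatase that acts on TIE2, and LILRB2, which encodes a leukocyte receptor for angiopoietin-like proteins, lay below the filter. TIE1, the orphan relative of TIE2, was at 0.05 (SE 0.10, limma adjusted p = 0.814). The gene called was ITGB3, the β3 subunit of the αvβ3 integrin, an adhesion receptor for matrix proteins. It had 854.7 with PD184352 and 1030 with PLX4720 at 24 h, against 2490 with DMSO, a change of -1.41 (SE 0.12, limma adjusted p = 1.8e-05). The next largest changes were those of ITGB5 at -0.31, SDC4 at -0.24 and ITGA5 at -0.23, and none of these passed. ITGAV, the partner of ITGB3, was at 0.05 and ITGB1 at 0.02, and neither passed.

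Of 11 lipase partners 8 were tested, and at 24 h 1 was called lower and 1 higher, with a median change of 0.06, near the 19.2% lower and 12.5% higher over all genes. The lower one was LPL, the enzyme that ANGPTL4 inhibits, with 96.1 and 150.3 with PD184352 and PLX4720 at 24 h, against 977.3 with DMSO. Its change of -3.01 (SE 0.20) stands beside the -0.02 of ANGPTL4. The higher one was PCSK6, a proprotein convertase that can cleave lipases of this family, at 0.68 (SE 0.13, limma adjusted p = 0.00248). FURIN, another convertase, was at -0.25 and GPIHBP1, the capillary anchor of LPL, at -0.17, and neither passed.

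Targets of the factors known to induce ANGPTL4 or ANGPTL7 moved unequally at 24 h, where 12.5% of all genes were called higher and 19.2% lower. Of 6 tested PPAR targets 3 were higher and 1 lower, with a median of 0.20. ACADVL, a fatty acid oxidation enzyme, was at 0.62, and PDK4, a kinase that restrains pyruvate oxidation, was at -0.95. Of 7 tested hypoxia targets 1 was higher and 4 lower, with a median of -0.40, and VEGFA, the main endothelial growth factor, was at -0.97 and ADM, adrenomedullin, at -0.89. Of 10 glucocorticoid targets 1 was higher and 1 lower, with a median of 0.06: KLF9, a zinc finger factor, was at 1.05 and the kinase SGK1 at -0.43. FKBP5 and TSC22D3, standard reporters of the glucocorticoid receptor, were at -0.24 and 0.15 and did not pass at 24 h. FKBP5 was called higher at 2 h, at 1.0 on the log2 scale (SE 0.12, limma adjusted p = 0.0268). Of all genes 0.086% were called at that time. FKBP5 had 128.5 and 138.6 with PD184352 and PLX4720 at 2 h, against 66.2 with DMSO. Its later DMSO samples were higher, at 111.4 at 6 h and 99.9 at 24 h. After quantile normalization no gene was called at 2 h. ANGPTL7 itself was at 4.21 at 24 h and at 0.11 at 2 h.

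Of 11 tested genes for other secreted or surface factors that act on vessels, 6 were called higher and 1 lower at 24 h, with a median of 0.31, beside 12.5% higher and 19.2% lower over all genes. The list was chosen with earlier results of these data known. It leaves out VEGFA at -0.97 and ADM at -0.89, counted as hypoxia targets, and the member ANGPT1 at -1.18, all called lower. SEMA3D, a secreted semaphorin, had 534.4 and 660.5 with PD184352 and PLX4720, against 96.9 with DMSO, and CCN3, a matricellular protein, had 2707 and 3447, against 600.2. Both were higher with PLX4720 than with PD184352 in these single samples, while ANGPTL7 was higher with PD184352. NRP1, a semaphorin and VEGF co-receptor, was at 0.50 and PDGFB, a pericyte growth factor, at 0.44. PGF, placental growth factor, was the 1 of the 11 called lower, at -0.29, and was named after its value was seen.

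**Figure D5:**
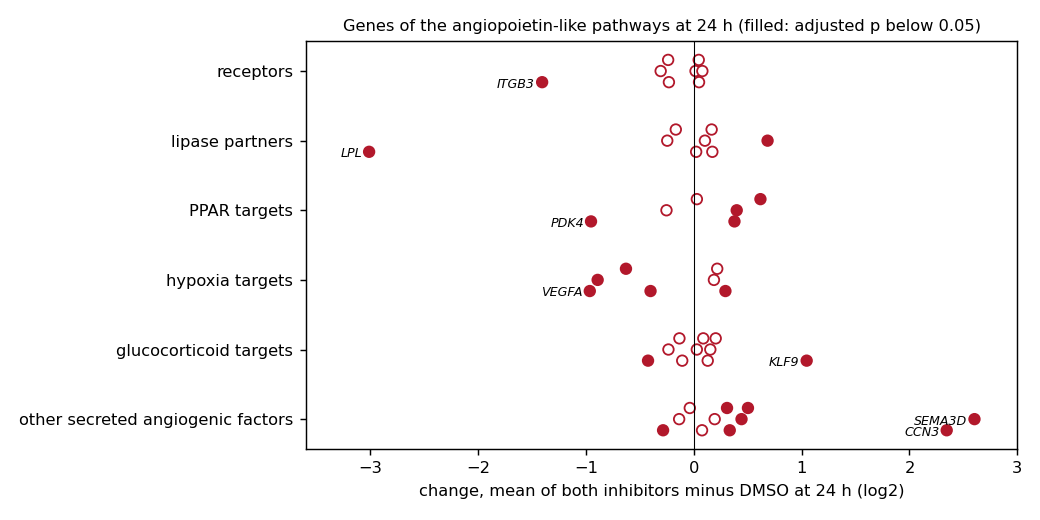
Change at 24 h (mean of both inhibitors minus DMSO, log2) for the tested genes of 6 lists, 1 point per gene, filled where the limma adjusted p was below 0.05; vertical offsets only separate points. LPL at -3.01 and ITGB3 at -1.41 lie furthest left, and SEMA3D at 2.60 and CCN3 at 2.35 furthest right.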

How the data were processed

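The authors deposited gene-level array intensities, which are not on a log scale. RMA, limma and R 2.8.0 are named in the submitters' processing notes without role or order. Background detection and the genome build are not given in the sources used here. From 35446 rows, 19380 with 1 gene symbol in the platform table gave 17047 genes, and 0 symbols changed when checked by gene identifier against RefSeq. The row with the highest mean stood for a gene with several. The 25% of genes with the lowest mean of log2(intensity + 1) were left out, and 12785 were tested with limma 3.58.1 (R 4.3.3). Calls are at p below 0.05 after Benjamini-Hochberg adjustment over all of them.

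The first fit gave each time a mean for DMSO and 1 for both inhibitors (3 residual degrees of freedom). The second compared the compounds in the 6 inhibitor samples with time as a block (2 residual degrees of freedom). PD184352 and PLX4720 are different compounds and not replicates. In the first fit the spread behind the p-values is that between the 2 compounds at the same time. In the second it is how far their difference varied over the times. Neither is a spread between cultures. Both fits were tested on simulated data. Standard errors (SE) are moderated. The number of arrays limits the precision.

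Members and gene lists were chosen with earlier results of these data known. Named are all members, their relatives and hosts, up to 4 genes of each list with the largest 24 h change plus called receptors and lipase partners, and the 5 genes most correlated with a member whose values spanned 2-fold. Genes further down a list were named as known counterparts after their values were seen. Promoter sequences are RefSeq's (GRCh38.p14): 1 window each matched ANGPTL7 and ANGPTL4. Longer motifs for PPAR and the glucocorticoid receptor, planned at first, were not searched.

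The alternatives tried were no pseudocount or one of 16, no filter or one at 50%, quantile normalization, the mean of all rows of a gene, an intensity trend, the mean of the 3 DMSO samples as control, all 9 samples for the comparison of compounds, and leaving out each sample.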

Additional observations from a re-analysis of the deposited data

Results flagged for a closer look

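The change of ANGPT1 differed between the 3 times by limma's F-test: it was -1.18 at 24 h, -0.47 at 6 h and 0.01 at 2 h, and the 24 h change minus the 2 h change was -1.19 on the log2 scale (adjusted p = 0.00194).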

How the results depend on the processing

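The fall of ANGPT1 at 24 h kept its direction in all 15 alternatives that gave a value, at -1.24 to -0.99. It kept its call in those with all 6 inhibitor samples (limma adjusted p of 1.7e-05 to 0.000261). Leaving out DMSO 2 h or DMSO 6 h could not alter it. Without DMSO 24 h there is no 24 h change, so dependence on that sample was not tested. The change was -1.11 without PD184352 24 h and -1.24 without PLX4720 24 h, each with 1 inhibitor sample left at 24 h. The 24 h difference of ANGPTL7 lay between 3.93 and 4.43. With 50% of genes left out none of the 4 genes was tested. At 6 h the count of members called was 0 with no filter, after quantile normalization and with the mean of the 3 DMSO samples as control, and 0 to 1 when 1 sample was left out: 0 without any of the PD184352 2 h, PD184352 6 h, PLX4720 2 h and PLX4720 6 h samples. Some values near 0 changed sign, none of them called. The 2 h change of ANGPT1 was -0.0051 after quantile normalization, -0.23 with the mean of the DMSO samples and -0.079 to 0.10 when 1 sample was left out (lowest without PLX4720 2 h). That of ANGPTL7 was -0.0048 to 0.22 when 1 sample was left out (lowest without PD184352 2 h), and the 24 h change of ANGPTL4 was -0.063 to 0.027 (highest without PLX4720 24 h). PD184352 minus PLX4720 for ANGPT1 was -0.16 to 0.0055 when 1 sample was left out (highest without either 2 h inhibitor sample). Among all genes, the count of 11 called at 2 h was 0 to 95 and that of 420 at 6 h 205 to 801 over all alternatives. At 2 h it was 95 without either 24 h inhibitor sample and 0 without either 2 h one, and at 6 h it was 253 with no filter. The 0 between the compounds became 24 with 50% of genes left out and up to 25 when 1 sample was left out. No paired analysis was possible because each group holds 1 sample and the labels give no replicate numbers; the compounds were compared with time as a block. Whether the dim values of ANGPTL7 and ANGPT2 and the flat values of ANGPTL4 were above background is not known. The 24 h fold of ANGPTL7 may thus be understated, and the rows of ANGPT2 may hold no signal.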
